A study of Mus musculus with 48 samples.

Results

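The collagen genes are the 44 gene symbols made of Col, a type number, the letter a and a chain number, out of the 34586 genes in a single-cell table of mouse collagen-induced arthritis (CIA). Col4a3bp, whose symbol begins the same way, does not encode a collagen chain and was left out. By the protein they encode, 11 are fibrillar collagens, 6 are the Col4 chains of basement membrane, and 27 belong to other types. The table holds unique molecular identifiers (UMIs) per gene and cell, from Seq-Well, a nanowell method that captures messenger RNA by its 3′ end and counts each captured molecule once. UMI counts of different genes were therefore compared without division by gene length.

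The mice were male DBA1/J animals of 8 to 12 weeks. The CIA group had 6 mice, S1, S2, S3, S5, S6 and S8, which were given 100 µg of bovine type II collagen in complete Freund's adjuvant into the skin and a booster in incomplete adjuvant on day 20. The 4 healthy mice, H3, H4, H6 and H7, were given PBS. S1 to S3 were labelled severe and S5, S6 and S8 mild, and the severe mice came from the experiment named 2CIA (with H3) and the mild mice from the experiment named CIA (with the other healthy mice), so severity and experiment cannot be told apart among the CIA mice. Cells came from joint, muscle, skin, lung and spleen, 48 samples in all, with 3 healthy and 5 CIA samples of joint. Cells were freed with collagenase IV from joint and lung, collagenase II from muscle and collagenase I from skin, so organ and enzyme cannot be told apart, and the cells had been frozen.

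The 48 samples held 30 to 1989 cells and 17748 to 1645734 UMIs, with a median of 675 UMIs per cell. Of 13240 cells, 12096 carried 1 of 13 cell type labels from the study, and all results below use these unless stated. The study had used Col1a2 and Col3a1 among its markers of the label Fibroblasts, so levels between labels are given as description, with no test. In all, 50 of 12041 cell barcodes occurred in more than 1 library; muscle and spleen of S8 shared 34, and muscle of S8 held no fibroblasts.

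Collagens are the main structural proteins of the matrix outside cells, built of 3 chains wound into a triple helix. Fibrillar types pack into the ropes that give skin, tendon, bone and joint capsule their tensile strength; type I is made of the Col1a1 and Col1a2 chains, type III of Col3a1, type V of Col5a1 to Col5a3, and the cartilage types II and XI of Col2a1, Col11a1 and Col11a2. Type IV chains form the sheet-like net of basement membranes under endothelium and epithelium, and smaller families anchor, cross-bridge or cap these structures. Fibroblasts of the synovium, the tissue that lines joints, make much of the joint's fibrillar collagen, and type II collagen is the antigen used to start arthritis in this model.

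All 44 genes were found in the mouse annotation of build GRCm38. Col1a1 lies on chromosome 11 (94936224 to 94953042, plus strand), Col1a2 on chromosome 6 (4504814 to 4541544, plus strand), and Col3a1 on chromosome 1 (45311538 to 45349706, plus strand), 24614 bases from Col5a2 on the opposite strand. Upstream sequence from RefSeq (GRCm38.p6) was at hand for 35 of the 44 genes. The 150 bases before the start of 3 fibrillar genes that differed between joint and skin fibroblasts are shown 5′ to 3′ on the gene's own strand. Capitals mark the CCAAT box (letters CCAAT), the TATA box (letters TATAAA) and the GC box (letters GGGCGG), on either strand. Several members overlap other annotated genes on the opposite strand, Slc19a1 at Col18a1 and Nt5dc1 at Col10a1 among them, and whether counting used the strand is not given in the sources used here.

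Col3a1 chr1:45311388-45311537 (+): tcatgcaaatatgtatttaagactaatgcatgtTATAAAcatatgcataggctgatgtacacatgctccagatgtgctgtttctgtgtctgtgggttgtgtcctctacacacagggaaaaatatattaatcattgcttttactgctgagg
Col5a1 chr2:27886275-27886424 (+): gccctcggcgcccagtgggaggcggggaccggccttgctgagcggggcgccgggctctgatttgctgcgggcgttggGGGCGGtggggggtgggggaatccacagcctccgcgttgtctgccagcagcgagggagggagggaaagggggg
Col11a1 chr3:114030390-114030539 (+): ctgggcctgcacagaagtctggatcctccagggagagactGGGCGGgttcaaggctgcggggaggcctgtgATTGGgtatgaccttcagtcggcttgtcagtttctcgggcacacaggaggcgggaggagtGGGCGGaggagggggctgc

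Over the whole windows, 250 bases before to 50 after the start, 13 of 38 collagen windows (34.2%) held CCAAT on either strand against 37.4% of all 32851 windows, and 5 (13.2%) held TATAAA against 13.6%. GGGCGG was in 23 (60.5%) against 35.7%. These matches describe the letters and were not tested as binding sites. The basement membrane genes are laid out in head-to-head pairs: Col4a1 and Col4a2 on chromosome 8 are transcribed away from each other and their annotated spans overlap by 22 bases, Col4a3 and Col4a4 on chromosome 1 start 71 bases apart, and Col4a5 and Col4a6 on the X chromosome 1308 bases apart. The shared stretch of Col4a1 and Col4a2, on the plus strand with GGGCGG in capitals, is shown because both genes recur below.

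Col4a1 and Col4a2 chr8:11312805-11312826 (+): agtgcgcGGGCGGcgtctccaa

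The annotated cells held 48533 collagen UMIs, and 3 genes made up most of them. Col1a2 had 14651 UMIs, Col3a1 had 14042 and Col1a1 had 11229, together 82.3% of all collagen UMIs. Next came Col5a2 with 1410, Col2a1 with 886, Col4a1 with 608, Col6a3 with 593, Col6a1 with 588, Col6a2 with 537, Col5a1 with 524, Col5a3 with 440 and Col14a1 with 421. Type VI chains (Col6a1 to Col6a3) form beaded filaments around cells, and Col14a1 encodes a chain that sits on the surface of fibrils. By class, 90.3% of collagen UMIs lay on fibrillar genes, 1.87% on Col4 genes and 7.80% on the rest. At the low end, 21 genes had fewer than 50 UMIs. Col25a1 had 0 of 10646725 UMIs, a count that allows up to 0.282 counts per 1000000 UMIs (CPM), the unit of all levels below.

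Fibroblasts, 1322 cells, held 88.7% of the collagen UMIs, and joint fibroblasts alone, 603 cells, held 65.2%. Collagen genes took 4.20% of all UMIs in joint fibroblasts, 1.77% in skin fibroblasts and 1.57% in muscle fibroblasts. Lung had 18 fibroblasts, with 60 collagen UMIs of 10971 (0.547%). Endothelial cells, which line blood vessels, followed at 0.782% in joint and 0.261% in muscle. Every other joint label of at least 10 cells lay between 0.0608% and 0.115%, granulocytes (0.0827%), macrophages (0.0762%) and T cells (0.0697%) included. In spleen no label of at least 10 cells passed 0.00631%.

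Of the UMIs on Col1a1, Col1a2 and Col3a1, Col3a1 took 36.6% in joint fibroblasts and 41.1% in joint cells that were neither fibroblasts nor endothelial cells, myocytes or Basal III cells, and Col1a1 took 27.6% and 24.3%. In those other joint cells the collagen share by mouse was 0.0424% in H3, 0.0508% in H4, 0.00947% in H7, 0.0968% in S1, 0.0478% in S3, 0.0872% in S5, 0.0408% in S6 and 0.0289% in S8. S1 and S5 were thus highest both there and among the fibroblasts described below. Whether transcripts from lysed fibroblasts contributed was not tested.

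**Figure D1:**
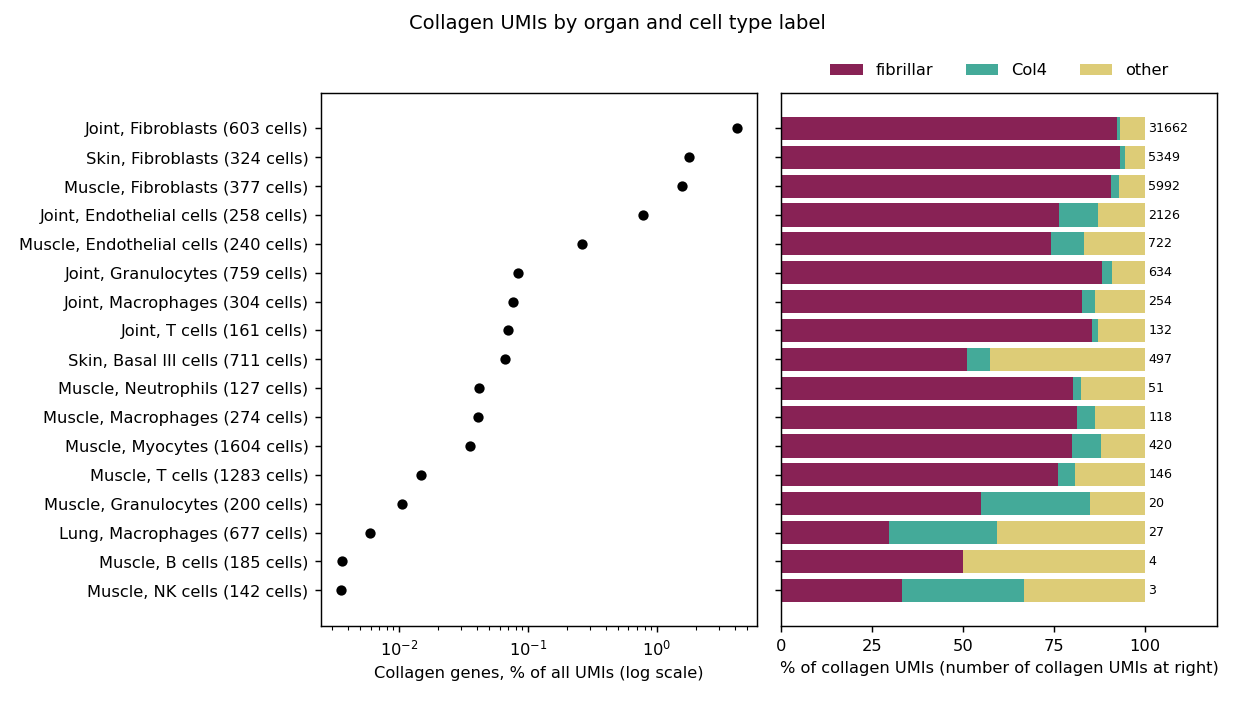
Left, collagen UMIs as a percentage of all UMIs (log scale) for each organ and cell type label with at least 100 cells outside spleen; right, how those collagen UMIs divide among fibrillar, Col4 and other genes, with the number of collagen UMIs beside each bar. Fibroblasts lead at 1.57% to 4.20% and are over 90% fibrillar, with 90.8% in muscle the lowest; the Col4 part is wider in joint endothelial cells (10.8%) than in joint fibroblasts (0.837%).

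Genes of basement membranes and epithelium were among those with many UMIs outside fibroblasts. Col4a1 had 50.7% of its UMIs in fibroblasts and 36.3% in endothelial cells, and Col4a2 had 51.0% and 36.0%. Col18a1, whose C-terminal fragment is endostatin, had 82 of 177 UMIs in endothelial cells (46.3%) and 38.4% in fibroblasts. Col8a1 and Col15a1, both chains found in vessel walls, had 30.9% and 29.1% in endothelial cells. Col17a1, the transmembrane collagen of hemidesmosomes that fastens basal keratinocytes to the basement membrane, had 156 of 174 UMIs in the label Basal III cells, which was led by Col17a1 among the collagens. Col7a1, the anchoring fibril chain of skin, had 13 of 46 UMIs there, and Col4a6 had 5 of 6. Col6a4 stood apart with 18 of 31 UMIs in spleen.

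In joint endothelial cells, Col4a1 had 166 UMIs of 272018, against 175 of 753235 in joint fibroblasts, so that it was more frequent per UMI in the endothelial cells. Col4a1 outnumbered Col4a2 by 2.63 to 1 in joint endothelial cells, 2.10 in muscle endothelial cells, 2.30 in joint fibroblasts and 2.29 in muscle fibroblasts. In skin it was 4.58 in fibroblasts (55 to 12 UMIs), 5.5 in endothelial cells (11 to 2) and 8 in Basal III cells (16 to 2). Muscle myocytes gave 3.71 (26 to 7), and muscle cells outside these labels 1.1 (11 to 10). The type IV protein of most basement membranes carries the Col4a1 and Col4a2 chains in a fixed ratio, and the counts here are of 3′ ends of transcripts. The leading collagens of endothelial cells were still fibrillar, Col1a2 (688 UMIs over all organs), Col3a1 (658) and Col1a1 (547). The collagen share of joint endothelial cells was 0.129% in H3 and 0.179% in H4. It was 1.124% in S1, 0.811% in S5 and 0.315% in S6. These were the 5 mice with at least 10 such cells. Both healthy mice lay below all 3 CIA mice, and this was not tested. In S1 these cells also held 47 UMIs of Col2a1, 19 of Col11a1 and 7 of Col11a2, the cartilage chains. S5 held 4, 2 and 1 of these, and H3, H4 and S6 held none. Whether transcripts of other cells contributed was not tested.

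In skin Basal III cells the collagen share lay between 0.0435% and 0.0740% in the 4 healthy mice and between 0.0459% and 0.168% in the 6 CIA mice, so the groups overlapped. Of its collagen UMIs in skin, 51.1% were fibrillar, 6.44% Col4 and 42.5% other. Col17a1 stood at 109, 165, 284 and 204 CPM in H3, H4, H6 and H7. In CIA mice it stood at 83.0 in S1, 187 in S2, 156 in S3, 197 in S5, 379 in S6 and 108 in S8. The ranges overlapped, and the log2 fold difference, CIA against healthy, was -0.30 ± 0.36 (SE, n = 4 and 6, edgeR quasi-likelihood adjusted p = 0.967). Col1a1 in the same cells gave 0.28 ± 0.51 (adjusted p = 0.982). These were the 2 collagen genes among 1280 that had enough counts to test there, and 0% of the 1280 passed an adjusted p of 0.05. At an unadjusted p of 0.05 it was neither of the 2 and 5.55% of the 1280, and DESeq2 called neither.

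The label Myocytes in muscle held 1604 cells, 1492 of them and 94.0% of their UMIs from S6. Its collagen share was 0.0353%, beside 0.0405% in muscle macrophages, where S5 held 74 of 118 collagen UMIs, and 0.0148% in muscle T cells. It was led by Col3a1 (145 UMIs over all organs), Col1a2 (94) and Col1a1 (54).

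Fibroblasts of different organs were compared over summed UMIs per mouse, using the 23 samples with at least 10 fibroblasts, 6 from joint, 8 from muscle and 9 from skin. A list of 10 fibroblast genes (Dcn, Lum, Pdgfra and others) was looked up under the label. All 10 had UMIs in every joint sample used, at least 9 in every muscle sample and at least 8 in every skin sample. A UMI in a summed sample is no check of the label by itself. The granulocyte genes Camp, Ngp, Retnlg, S100a8 and S100a9 also had UMIs in every joint sample used. The collagen share in joint fibroblasts, by mouse, was 1.47% in H3, 2.03% in H4, 0.774% in H7, 5.89% in S1, 2.22% in S3 and 4.95% in S5. In muscle it ran from 0.521% (H6) to 3.42% (S2), and in skin from 0.696% (S8) to 3.36% (H4). The 95% Wilson intervals of these shares, which cover counting error only, reached at most 0.308 percentage points from the value. Fibrillar genes took 92.5% of collagen UMIs in joint, 90.8% in muscle and 93.3% in skin fibroblasts.

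**Figure D2:**
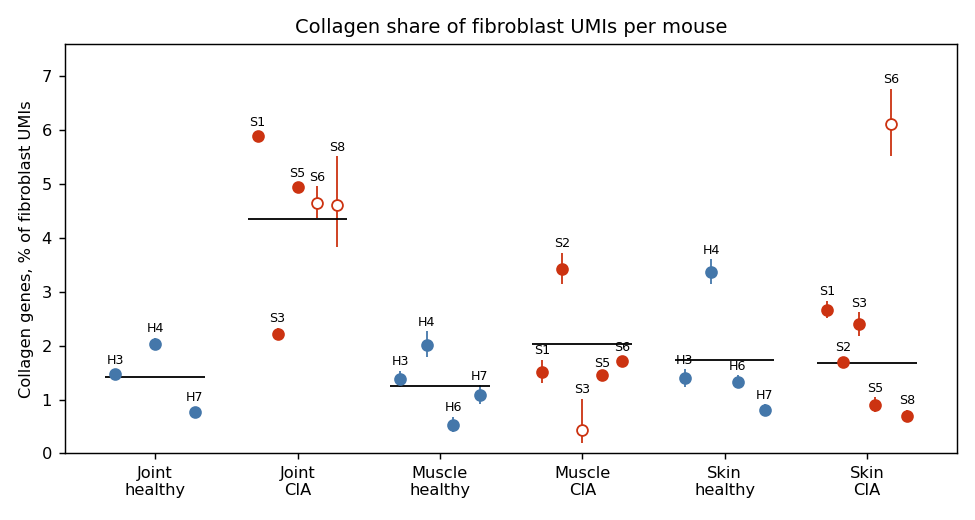
Collagen UMIs as a percentage of fibroblast UMIs for each mouse, by organ and group, with 95% Wilson intervals; filled points are mice with at least 10 fibroblasts, open points mice with fewer, and the black lines are means of the filled points. In joint all CIA mice lie above all healthy mice, from 2.22% in S3 upward against 2.03% in H4 downward; in muscle and skin the groups overlap.

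Of the 12 collagen genes with enough counts to be tested, 8 were higher in joint than in skin fibroblasts at an adjusted p of 0.05 (edgeR quasi-likelihood, Benjamini-Hochberg over 1134 genes) and none was lower. They were all 3 tested chains of type V, Col6a1 and Col6a2, Col11a1, Col14a1 and Col3a1. Over all 1134 genes, 24.3% passed in either direction and 16.3% were higher in joint. At an unadjusted p of 0.05 it was 9 of the 12 and 37.2% of all genes. The median log2 fold difference was 1.48 for the 12 collagens and 0.11 for all genes. Of the 12, 8 had too few counts in skin to have passed the filter on skin samples alone. Among these 8 were Col5a1, Col5a3, Col6a1, Col6a2, Col11a1 and Col14a1, which were called. The count of calls, their direction and this median therefore describe the genes tested and not the family.

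Col5a1, which starts and limits the width of type I fibrils, had 127, 284 and 596 CPM as lowest, median and highest of the 6 joint mice, and 0, 42.2 and 177 in the 9 skin mice. The ranges overlapped at their ends, and the log2 fold difference was 2.53 ± 0.55 (SE, edgeR adjusted p = 0.00136). Its partner Col5a2 ran from 285 over 754 to 1727 in joint and from 127 over 248 to 665 in skin (1.52 ± 0.37, adjusted p = 0.00349). Col5a3, the third chain of type V, gave 2.33 ± 0.76 (adjusted p = 0.0272).

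Col14a1 ran from 77.4 over 295 to 396 CPM in joint and from 0 over 74.5 to 247 in skin, a log2 fold difference of 2.195 ± 0.479 (edgeR adjusted p = 0.00136). Col11a1, a fibril chain of cartilage and of some other matrices, ran from 92.9 to 1025 in joint, was at 0 in 3 of 9 skin mice and reached 273 there (1.87 ± 0.62, adjusted p = 0.0304). Of type VI, Col6a2 gave 1.65 ± 0.50 (adjusted p = 0.0169) and Col6a1 1.43 ± 0.48 (adjusted p = 0.0321), both past the threshold. Col6a3, at 1.20 ± 0.56 (adjusted p = 0.117), did not pass.

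Among the 3 leading genes, Col3a1 was higher in joint by 1.28 ± 0.40 on the log2 scale (edgeR adjusted p = 0.0219), with medians of 6647 CPM in joint and 4179 in skin. Col1a2 did not pass (0.76 ± 0.39, adjusted p = 0.155). Col1a1 had medians of 5874 and 5068 and a difference of 0.14 ± 0.45 (adjusted p = 0.869), and Col4a1 one of 0.23 ± 0.35 (adjusted p = 0.687). Whether the difference of Col1a1 was smaller than that of the other genes was not tested.

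Several other things moved with this contrast. Of the 10 fibroblast genes, 6 were also higher in joint (Dcn, Fstl1, Gsn, Lum, Pi16 and Mmp2) and none lower. Of the cartilage list 2 of 3 tested genes (Chad and Comp), of the bone list 2 of 2, of the tendon list 2 of 3 and of the granulocyte list 5 of 5 were higher in joint. The summed granulocyte genes lay between 1440 and 30292 CPM in the 6 joint samples and between 0 and 520 in skin. The part of these in the collagen difference was not tested, apart from leaving out the cells of the label that held a UMI of Acan, Matn3, Hapln1 or Cnmd, which are cartilage genes; 5 of 10 tested collagens were then higher in joint (29.9% of 881 genes passed). With the animal as a block, 5 of 12 passed, Col3a1, Col5a1, Col5a2, Col11a1 and Col14a1, with 16.2% of all genes passing. The count also turned on single mice: it was 3 without S1 or S5, 4 without S8 and 5 without H6 or S6, and Col5a1, Col5a2 and Col14a1 passed in each of these and in all other settings tried.

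Against muscle, joint fibroblasts were higher in Col5a2 and Col11a1, and no collagen passed lower. The 2 calls of 12 stand beside 4.14% of 1134 genes called. Muscle samples alone would not have carried Col11a1 past the filter on low counts, whereas joint samples alone would. Col5a2 had a median of 180 CPM in muscle, with a range of 82.7 to 794, and a log2 fold difference of 1.47 ± 0.39 (edgeR adjusted p = 0.0231). Col11a1 was at 0 in 7 of 8 muscle mice, with 6 UMIs in S5 alone, and gave 5.48 ± 1.08 (adjusted p = 0.00381), a fitted size that depends on how zeros are handled. Col1a1 (1.07 ± 0.46, adjusted p = 0.209), Col1a2 (0.65 ± 0.40, adjusted p = 0.40), Col3a1 (0.80 ± 0.42, adjusted p = 0.301) and Col4a1 (0.06 ± 0.38, adjusted p = 0.967) did not pass. Nor did Col6a1 (1.03 ± 0.51, adjusted p = 0.273), Col6a2 (1.38 ± 0.52, adjusted p = 0.142) and Col6a3 (0.67 ± 0.58, adjusted p = 0.575). With the animal as a block, Col11a1 was the 1 collagen that passed, with 2.12% of genes called. Without the cells holding a cartilage gene UMI 1 passed, with 3.52% of genes called. The count was 0 without H7, S1 or S5, 1 without H6, S2 or S6 and 4 without H3 or S3.

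Skin fibroblasts carried less Col14a1 and Col5a3 than muscle fibroblasts. Skin samples alone would not have carried either gene past the filter on low counts. Col14a1 ran from 204 over 286 to 910 CPM in muscle, above the skin median of 74.5 in every mouse, and fell by 2.44 on the log2 scale in skin (SE 0.50, edgeR adjusted p = 0.000889). Col5a3 fell by 2.47 (SE 0.76, adjusted p = 0.0196). The 2 of 12 stand beside 20.7% of all genes called, and with the animal as a block Col14a1 alone passed (12.4% of genes called), as 1 gene did without H3, S1 or S5. At an unadjusted p of 0.05 it was 5 of the 12 and 32.4% of all genes. Col1a1 (0.93 ± 0.43, adjusted p = 0.128), Col1a2 (-0.11 ± 0.37, adjusted p = 0.88), Col3a1 (-0.48 ± 0.38, adjusted p = 0.423), Col4a1 (-0.17 ± 0.37, adjusted p = 0.814) and Col6a1 to Col6a3 (from -0.53 to -0.27, adjusted p from 0.611 to 0.799) did not pass. In this contrast 6 of the 10 fibroblast genes and 5 of 5 granulocyte genes were also lower in skin, and their part was not tested.

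**Figure D3:**
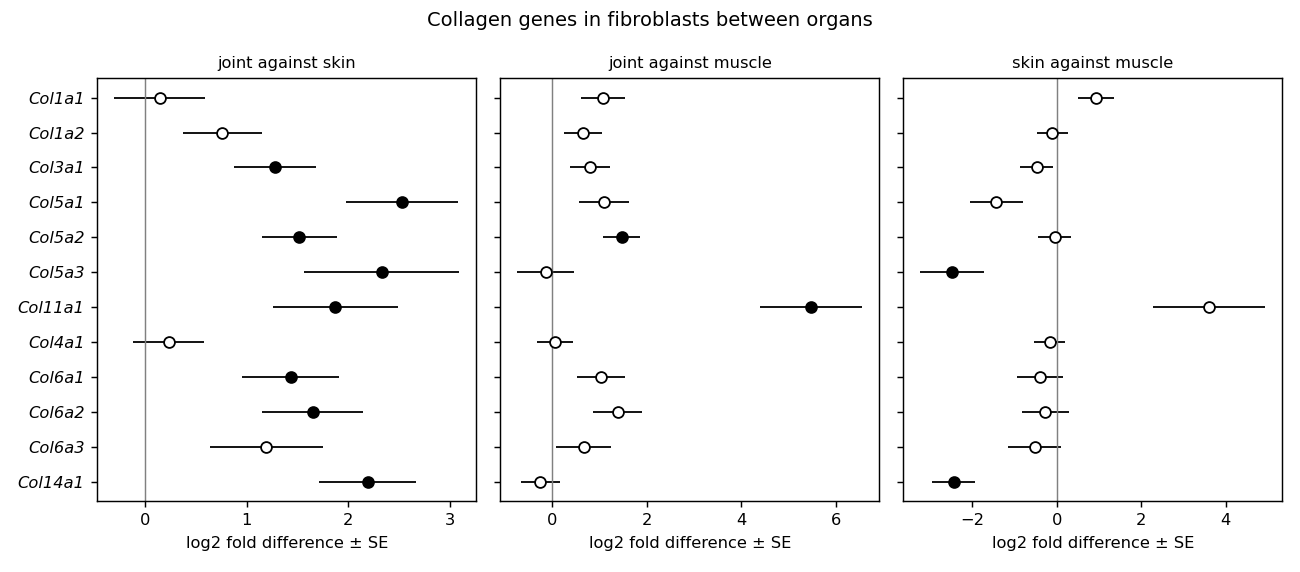
Log2 fold differences of the 12 collagen genes tested in fibroblasts between organs, with standard errors; filled points passed an adjusted p of 0.05. Joint against skin has 8 filled points to the right of 0, joint against muscle has Col5a2 and Col11a1, and skin against muscle has Col5a3 and Col14a1 to the left.

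Of 44 collagen genes, 12 had enough counts to be tested in joint fibroblasts; these 12 were estimated higher in CIA than in healthy mice, and none passed the adjusted threshold. The filter asked for at least 150.1 CPM in 3 mice. Healthy mice alone met it for 6 of the 12, Col1a1, Col1a2, Col3a1, Col5a2, Col6a1 and Col6a2. CIA mice alone, and not healthy mice alone, met it for 5, Col2a1, Col4a1, Col5a1, Col11a1 and Col14a1. For Col4a1 and Col11a1 no healthy mouse reached it. Counts and medians over the 12 are therefore a description of the genes tested. The fit compared H3, H4 and H7 with S1, S3 and S5; S6 had 9 joint fibroblasts and S8 had 4, too few to enter. The median log2 fold difference was 1.43 for the 12 collagens and 0.06 for all 1014 genes tested, of which 1.68% were called. At an unadjusted p of 0.05, 8 of the 12 collagens passed, beside 17.8% of all genes. By edgeR none of the 12 was called, and by DESeq2 1 was, Col1a1 (adjusted p = 0.0344, with 4.04% of genes called).

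Col1a1 was at 2184, 4289 and 1294 CPM in H3, H4 and H7, and at 13427, 7460 and 11040 in S1, S3 and S5. The few cells of S6 and S8 gave 14201 and 16591. Every CIA mouse lay above every healthy mouse, within the experiment 2CIA (H3 against S1 and S3) as within the experiment CIA (H4 and H7 against S5), and the log2 fold difference was 1.91 ± 0.59 (SE, n = 3 and 3, edgeR adjusted p = 0.148).

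Col3a1 was at 5096, 6534 and 1786 in the healthy mice and at 15692, 6761 and 16742 in the CIA mice, so that S3 lay just above H4 (1.43 ± 0.63, edgeR adjusted p = 0.272). Col1a2 was at 4985, 6967 and 2717, and at 18954, 4896 and 13887; S3 fell within the healthy range (1.25 ± 0.63, adjusted p = 0.344). The type I chains were captured in different proportion: Col1a1 per Col1a2 was 0.438, 0.616 and 0.476 in H3, H4 and H7 and 0.708, 1.52 and 0.795 in S1, S3 and S5. In muscle that ratio ran from 0.291 to 0.557 in healthy and from 0.508 to 0.650 in CIA mice with at least 10 fibroblasts, and in skin from 0.445 to 1.22 and from 0.911 to 1.44, overlapping in both.

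Chains of the smaller fibrillar types were also estimated higher, and are named with their values seen. Col5a2 was at 364, 619 and 285 in the healthy mice and 1552, 889 and 1727 in the CIA mice, with no overlap (1.60 ± 0.46, edgeR adjusted p = 0.13). Col5a1 gave 1.39 ± 0.45 (adjusted p = 0.174) and Col11a1, at 127, 92.9 and 129 against 1025, 306 and 298, gave 2.18 ± 0.59 (adjusted p = 0.129). In all, 6 of the 12 collagens, Col1a1, Col3a1, Col4a1, Col5a1, Col5a2 and Col11a1, were higher in every CIA than in every healthy mouse, where 18.1% of all 1014 genes were. For Col4a1 and Col11a1 this order followed from the filter. Healthy mice alone would not have carried Col5a1 past the filter either.

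Of the basement membrane genes, Col4a1 was at 111, 124 and 51.8 in the healthy mice and at 373, 277 and 202 in the CIA mice (1.42 ± 0.49, edgeR adjusted p = 0.183), and Col4a2 had too few counts to test. Of type VI, Col6a1 was at 158, 341 and 155, and at 699, 102 and 698; S3 lay below all healthy mice (1.10 ± 0.67, adjusted p = 0.426). Col6a2 gave 1.35 ± 0.68 (adjusted p = 0.345) and Col6a3 2.05 ± 0.83 (adjusted p = 0.256), with S3 low in both at 72.9. Col14a1 overlapped at 396, 77.4 and 285 against 266, 306 and 316 (0.21 ± 0.50, adjusted p = 0.861).

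**Figure D4:**
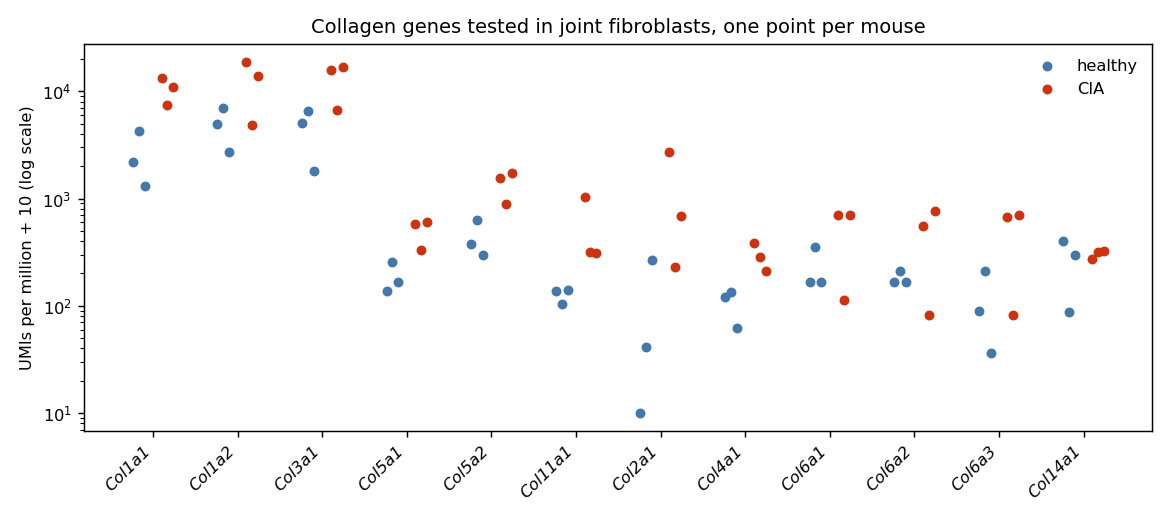
CPM plus 10 (log scale) of the 12 collagen genes tested in joint fibroblasts, one point per mouse, healthy (H3, H4, H7) beside CIA (S1, S3, S5). For Col1a1 all CIA points, from 7460, lie above all healthy points, up to 4289; for type VI chains one CIA point, S3, lies low; Col14a1 overlaps.

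The number of collagens that passed turned on single mice and on the tool and filter. Without S3, 7 of 15 collagens tested passed, all higher in CIA, with 3.44% of genes called. They were Col2a1, Col5a2, Col5a3, Col6a2, Col6a3, Col11a1 and Col12a1. In healthy mice Col5a3, Col11a1 and Col12a1 reached at most 124, 129 and 77.4 CPM, below the 150.1 CPM asked for in the main fit. These genes thus passed the filter through the CIA mice, and their direction followed from it. Without S5, 1 of 12 passed, with 17 of 1239 genes called. In the experiment CIA alone, H4 and H7 against S5, 3 of 16 passed (4.74% of genes called), with the lone CIA mouse assumed to vary like the others. With no filter on low counts 11 of 38 passed, 10 higher and 1 lower, with 0.52% of genes called.

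Other values moved with the group in these cells. The summed granulocyte genes (Camp, Ngp, S100a8, S100a9, Ltf and Retnlg) lay between 1440 and 6081 CPM in healthy joint fibroblasts and between 13837 and 30292 in CIA. All 5 tested were estimated higher and Retnlg passed. Retnlg had 7, 3 and 5 UMIs in H3, H4 and H7, below 150.1 CPM in each. It thus passed the filter through the CIA mice, and its direction followed from it. The fibroblast list summed to between 37652 and 45458 in healthy and between 8261 and 21539 in CIA mice, while 4 of the 9 tested were estimated higher, and Gsn passed lower. Summed cartilage genes lay between 1298 and 9653 in healthy and between 583 and 3388 in CIA, with Cytl1 lower past the threshold and Matn1 at 0 in all joint fibroblasts. Cytl1 had 0 UMIs in S1, S3 and S5, so it passed the filter through the healthy mice and its direction followed from it. Bone genes lay between 222 and 3453 in healthy and between 383 and 5532 in CIA, with Dmp1 and Phex at 0, and tendon genes between 465.8 and 913 and between 233 and 3262. Median UMIs per fibroblast were 679 to 838 in healthy and 1020.5 to 1471.5 in CIA mice. The part of these in the collagen estimates was not tested, except that without the fibroblasts holding a cartilage gene UMI all 10 collagens tested were still estimated higher (median 1.29) and none passed.

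Col2a1, the chain of type II collagen and so the mouse counterpart of the immunogen, lay almost wholly in joint, with 99.9% of its 886 UMIs. Its 3′ reads count mouse transcript; protein given as immunogen carries none. Joint fibroblasts held 812 of its UMIs, at 0, 31.0 and 259 CPM in H3, H4 and H7, and at 2736, 219 and 681 in S1, S3 and S5. H3's 0 of 63184 UMIs allows up to 47.5 CPM. H7 lay above S3, so the groups overlapped, and the log2 fold difference was 3.84 ± 1.17 (SE, n = 3 and 3, edgeR adjusted p = 0.144). Col2a1 passed the filter on low counts through the CIA mice, as healthy mice alone did not meet it. Muscle fibroblasts held 1 UMI of 382382, and skin fibroblasts 0 of 301429, which allows up to 9.95 CPM.

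Few cells carried it. Only 38 of 603 joint fibroblasts had a Col2a1 UMI, and 13 with at least 10, of which 11 came from S1, 1 from S3 and 1 from S5, held 771 of the 812. These 13 cells, chosen by Col2a1 and described with no test, also held 40 of 41 Col9a1 UMIs, 20 of 28 of Col9a2, 25 of 35 of Col9a3, 59 of 70 of Col11a2 and 202 of 344 of Col11a1, with 3.90% of the UMIs of all joint fibroblasts. Type IX and XI chains coat and join type II fibrils in cartilage. The same cells held 49 of 118 UMIs of Acan and 40 of 47 of Matn3, both matrix genes of cartilage, against 8.29% of Col1a1 and 2.71% of Col3a1. Col10a1, the collagen of hypertrophic chondrocytes, had 34 UMIs in 4 joint fibroblasts outside these 13, 30 of them in 1 cell of H3.

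In muscle fibroblasts the 3 testable collagens were estimated higher in CIA and did not pass, and 0% of 173 genes were called (6.36% at an unadjusted p of 0.05, and none of the 3 collagens; DESeq2 called none of the 3). Col1a1 was at 1015, 4897, 688 and 1936 CPM in H3, H4, H6 and H7, and at 2399, 7005, 2810 and 3509 in S1, S2, S5 and S6. The filter asked for 701.5 CPM in 4 mice, and H6 lay below it. CIA mice alone, and not healthy mice alone, would thus have carried Col1a1 past it. Healthy mice alone met it for Col1a2 and Col3a1. The groups overlapped through H4, and the log2 fold difference was 1.00 ± 0.58 (SE, n = 4 and 4, edgeR adjusted p = 0.731). Col3a1 was at 5736, 5280, 1278 and 2438 in healthy and 5295, 13392, 4037 and 4984 in CIA mice (1.03 ± 0.57, adjusted p = 0.731). Col1a2 was at 3486, 8800, 2261 and 5162, and at 4302, 10782, 5529 and 6459 (0.59 ± 0.46, adjusted p = 0.755). S3 had 2 muscle fibroblasts and was left out.

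In skin fibroblasts the same 3 genes differed by less than their errors. Col1a1 ran from 2484 (H7) to 12192 (H4) in 4 healthy mice and stood at 11368, 5105, 8775, 2892 and 1730 in S1, S2, S3, S5 and S8. The ranges overlapped throughout, and the log2 fold difference was 0.21 ± 0.55 (SE, n = 4 and 5, edgeR adjusted p = 0.946). Col1a2 gave -0.23 ± 0.47 (adjusted p = 0.921) and Col3a1 0.08 ± 0.46 (adjusted p = 0.957). Of 349 genes 0% were called, 8.88% had an unadjusted p under 0.05, none of them a collagen, and DESeq2 called none of the 3. S6, with 8 skin fibroblasts, was left out at a collagen share of 6.11% (95% Wilson interval 5.51% to 6.77%). The sign of Col1a1 and Col3a1 turned when the experiment was a term in the fit (-0.46 and -0.36).

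The CIA effect in joint was compared with that in the other organs as an interaction over all 23 samples. The 12 collagens were those of the organ contrasts, of which 8 would not have passed the filter on skin samples alone. Sign counts and medians here therefore describe the genes tested and not the family. For joint minus skin, 11 of 12 collagens had a positive estimate, with a median of 1.44 against -0.03 for all genes, and none passed; 0% of 1134 genes did, and 6.97% had an unadjusted p under 0.05, none of them a collagen. Col1a1 gave 1.79 ± 0.90 (edgeR adjusted p = 0.645), Col1a2 1.57 ± 0.79 (adjusted p = 0.645) and Col3a1 1.44 ± 0.82 (adjusted p = 0.675). For joint minus muscle the 3 gave 0.95 ± 0.93, 0.70 ± 0.81 and 0.45 ± 0.84 (adjusted p from 0.831 to 0.93), and none of 12 passed beside 0.176% of genes called; Col5a2 alone had an unadjusted p under 0.05 (8.47% of genes did). For skin minus muscle none of 12 passed, with 6 positive, beside 0% of genes called and 4.32% at an unadjusted p under 0.05. DESeq2 called no collagen in the 3 interactions. A difference between organs in the CIA effect was thus not detectable with these mice.

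**Figure D5:**
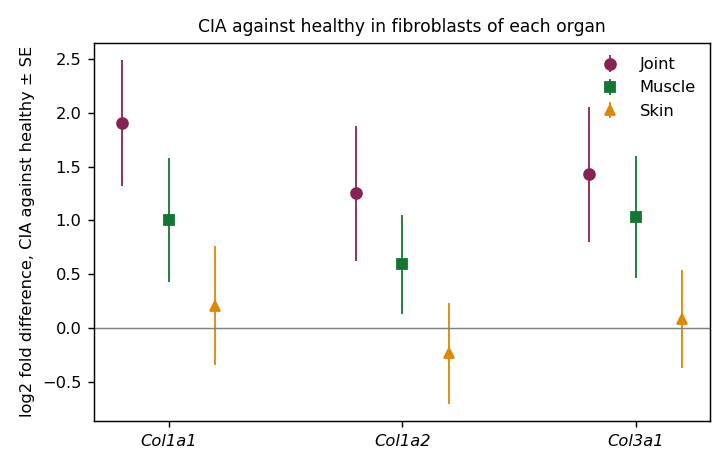
Log2 fold difference, CIA against healthy, of Col1a1, Col1a2 and Col3a1 in fibroblasts of joint (circles), muscle (squares) and skin (triangles), with standard errors. Joint estimates lie between 1.25 and 1.91, muscle between 0.59 and 1.03 and skin between -0.23 and 0.21, and none passed the adjusted threshold.

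Summed over all annotated cells of the joint, in which fewer fibroblasts and less RNA per fibroblast cannot be told apart, 12 of 13 collagens were estimated higher in CIA and none passed (0.127% of 2364 genes called; 5 of 13 and 10.7% at an unadjusted p of 0.05; DESeq2 called none). Which group carried these 13 past the filter was not examined, so the count describes the genes tested. Col1a1 gave 1.60 ± 0.58 (n = 3 and 5, edgeR adjusted p = 0.298), Col1a2 0.77 ± 0.67 (adjusted p = 0.695) and Col3a1 1.03 ± 0.60 (adjusted p = 0.553). Fibroblasts made up 42.2% to 52.8% of annotated joint cells in the healthy mice and 4.82% to 44.4% in the CIA mice. In the sums of muscle, 4 of 5 collagens were positive (median 0.20), and in those of skin 2 of 6 (median -0.02); none passed, beside 0.055% and 0% of genes called, none reached an unadjusted p of 0.05 (3.91% and 7.34% of genes did), and DESeq2 called none. In macrophages of joint, muscle and lung, and in the sum of lung cells, no collagen gene had enough counts to be tested.

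The enzymes and chaperones that make collagen were examined in the same fits, as a list of 36 genes of which 35 were in the table, with a list of 11 receptors. In joint fibroblasts 9 synthesis genes could be tested; 7 were estimated higher in CIA (median 0.82, beside 0.06 for all 1014 genes), 1 passed lower and none passed higher, where 1.68% of all genes passed. That one was Pcolce2, an enhancer of procollagen C-terminal cleavage, at 586, 325 and 518 CPM in H3, H4 and H7 and at 135, 43.7 and 81.5 in S1, S3 and S5, which fell by 2.41 on the log2 scale (SE 0.47, edgeR adjusted p = 0.0369). Every CIA mouse lay below the 150.1 CPM that the filter asked for. Pcolce2 thus passed the filter through the healthy mice, and its direction followed from it. Its call was lost without H3, H4, H7, S1 or S5, at adjusted p from 0.0682 to 0.146. Serpinh1, the collagen chaperone of the endoplasmic reticulum, was at 364, 217 and 285 against 792, 656 and 1099, with no overlap (1.50 ± 0.36, adjusted p = 0.09). Pcolce, the other enhancer, overlapped (0.07 ± 0.43, adjusted p = 0.95). Of the receptors only Itgb1, the beta chain of collagen-binding integrins, could be tested (0.98 ± 0.42, adjusted p = 0.262).

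In joint against skin, where 24.3% of all genes passed and 16.3% were higher in joint, 4 of 6 tested were higher in joint and none lower: Lox, which cross-links collagen (2.84 ± 0.59, edgeR adjusted p = 0.000837), Pcolce (2.30 ± 0.45, adjusted p = 0.000518), Ppib, a prolyl isomerase (1.65 ± 0.39, adjusted p = 0.00265) and Serpinh1 (0.98 ± 0.32, adjusted p = 0.0264). The filter asked for 264.3 CPM in 3 samples. In skin, Lox and Ppib reached at most 106 and 159 CPM in healthy mice, with medians of 98.6 and 210 in CIA mice. Skin samples alone would thus not have carried Lox and Ppib past the filter. The count of calls and their direction therefore describe the genes tested. Joint against muscle gave none of 6. In skin against muscle, where 20.7% of all 1134 genes passed, 136 of them lower in skin, 3 of 6 were lower in skin, Pcolce (fell by 2.03, SE 0.47, adjusted p = 0.00284), Ppib (fell by 1.25, SE 0.41, adjusted p = 0.0297) and Serpinh1 (fell by 0.93, SE 0.32, adjusted p = 0.0399). The limit of the filter for Ppib in skin holds for this contrast too. With the animal as a block Pcolce passed in skin against muscle, and Ppib and Serpinh1 did not.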

How the data were processed

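Seq-Well libraries of joint, muscle, skin, lung and spleen from 4 healthy and 6 CIA mice were analysed. The authors deposited UMI counts per gene and cell, made with Drop-seq tools and STAR on GRCm38, after removing shallow or mitochondria-rich cells and, as possible duplicates, cells of very high counts, together with cell type labels; no doublet caller was run here and 0 columns were left unmapped. The members, gene lists and tests were chosen with earlier results of these data known. UMIs were summed per mouse, organ and label (at least 10 cells and 3 mice a group) and tested with edgeR 4.0.16 quasi-likelihood (TMM factors, filterByExpr, Benjamini-Hochberg 0.05) in R 4.3.3; limits and intervals used Python 3.11.15 with scipy 1.17.1, and limits are 3 counts over the total. DESeq2 1.42.0, other scalings and filters and left-out mice were alternatives. Scripts were tested on simulated data. Nothing states that samples of a group were prepared independently beyond their being different mice.

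Genes named were, for levels, the 12 collagens with most UMIs, the 3 leading ones of 4 labels, and Col2a1; for each comparison, every collagen past 0.05 and the 3 fibrillar, 2 Col4 and 3 other collagens with most UMIs, when tested; and from the lists, genes past 0.05 and the 2 with most UMIs. Other collagens of the joint fit are named beyond the rule, and the sums over all cells, the interactions and the lists of joint against muscle are given for fewer genes or as counts. For organs, samples of the same mouse pair by design; their deviations from group means correlated between -0.143 and 0.186 (median -0.0296) over 18 pairs.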

Additional observations from a re-analysis of the deposited data

Results flagged for a closer look

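Healthy and CIA mice were examined apart, in 22 groups of 4 to 6 mice. Of these, 3 had a sample far from the others, and chance alone gives about 1 in 20. Joint fibroblasts, with 3 mice a group, were not examined. In muscle fibroblasts of CIA mice, S2 (16 cells) was highest for the collagen share, at 3.42%, and for Col3a1, at 13392 CPM. In skin Basal III cells of CIA mice, S6 (20 cells) was highest for the collagen share, at 0.168%. Cells without a cell type label, which entered no comparison, also held collagen UMIs: 0.722% of their UMIs in joint (179 cells), 0.384% in muscle (305 cells) and 0.316% in skin (156 cells), against 0.00504% in spleen.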

How the results depend on the processing

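Over 17 counts of collagens called and their 325 alternatives, 290 counts stayed within 1.5 times the value given and 35, in 5 of the counts, did not. In joint fibroblasts, CIA against healthy, 0 became 1 with DESeq2, 11 with no filter on low counts and 3 in the experiment CIA alone, and 0 to 7 leaving out 1 mouse; in all joint cells 0 became 2 with no filter. For joint against skin, 8 became 5 with plain library sizes, 13 with no filter, 5 with the replicate block and 5 without cells holding a cartilage gene UMI (chosen after seeing the data), and 3 to 10 leaving out 1 mouse, 3 without S1 or S5. For joint against muscle, 2 became 1 with plain library sizes, at least 5 cells per mouse, the replicate block or no cartilage cells, 6 with no filter, 8 in the experiment CIA alone, and 0 to 4 leaving out 1 mouse, 0 without H7, S1 or S5. For skin against muscle, 2 became 4 with no filter, 1 in the experiment CIA alone or with the replicate block, and 1 to 3 leaving out 1 mouse. Plain library sizes moved the median of all genes for joint against skin from 0.11 to -0.15. The cause of each change was not tested. The Col4 share in skin fibroblasts became 0.498% without Col1a1, Col4a1 and Col6a1.

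For single genes 45 of 1295 alternatives turned the sign, none of a value past the threshold. In joint fibroblasts, CIA against healthy, Pcolce became -0.026 with DESeq2 and -0.025 with RLE factors. In skin, Col1a1 became -0.46 and Col3a1 -0.36 with the experiment as a term, -1.52 and -0.79 in the experiment CIA alone, and Col1a2 0.34 with at least 5 cells. Col17a1 in Basal III cells became 0.44 with the replicate block. Within an organ this block used replicate numbers, which are shared by different animals and pair nothing. In the contrasts between organs the replicate block was the animal, which pairs organs of the same mouse. For joint against skin, plain library sizes gave -0.14 for Col1a1 and -0.055 for Col4a1, and at least 5 cells -0.12 for Col1a1. For joint against muscle, Col4a1 became -0.17 with plain library sizes, -0.0025 with the experiment as a term and -0.19 with the replicate block. For skin against muscle, Col1a2 became 0.071 with no filter and 0.16 with at least 5 cells, Col4a1 0.029 with at least 20 cells and 0.063 in the experiment CIA alone, Col6a2 0.026 with at least 5 cells and 0.29 with the replicate block, and Col6a3 0.60 in the experiment CIA alone. Leaving out 1 mouse, the ranges that crossed 0 were, in joint, -0.18 to 0.70 for Col14a1 and -0.18 to 0.40 for Pcolce; in skin, -0.21 to 0.87 for Col1a1, -0.50 to 0.21 for Col1a2 and -0.22 to 0.63 for Col3a1; for joint against skin, -0.076 to 0.33 for Col1a1; for joint against muscle, -0.11 to 0.39 for Col4a1; and for skin against muscle, -0.26 to 0.093 for Col1a2, -0.27 to 0.22 for Col4a1, -0.49 to 0.066 for Col6a2 and -0.79 to 0.63 for Col6a3.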
